A study of Mus musculus with 3 samples.

Results

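Mouse embryonic stem cells in which the gene Gc was read were set against cells of the same plate and cell type in which no Gc molecule was counted. A well was called Gc-positive when Gc reached at least 1 unique molecular identifier (UMI, a tag that marks 1 captured RNA molecule) per 10000, and Gc-negative when it held 0 Gc UMIs. The classes were thus chosen by the measured Gc count and total UMIs. Wells also needed at least 1000 detected genes, under 20% mitochondrial UMIs and at least 20000 gene UMIs. Of 4610 wells of the 3 cell types, 2896 met these limits. Of these, 928 were Gc-positive (333, 309 and 286 on plates 1, 2 and 3), 951 were Gc-negative (362, 331 and 258), and 1017 lay between and entered no class. Of the wells not kept, 1517 had too few UMIs only, 113 too few genes and 84 too high a mitochondrial share.

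All cells were blastocyst-derived, carried floxed Mll1 alleles (Mll1fl/fl) and Cre-ER TM, a recombinase activated by tamoxifen, and were on the C57BL/6J background. On each of 3 plates (105102, 105106 and 105107, called 1, 2 and 3) wells were labelled as Mll1 deleted (Mll1-/-), Mll1 inhibited or floxed control; Mll1, now Kmt2a, encodes a histone H3 lysine 4 methyltransferase. The labels do not name the inhibitor or its dose, the deleted exons, or how many cell lines were used. Whether each plate was a culture of its own is not stated. Most p-values here rest on the spread of class differences over 9 groups of plate and cell type. These groups are counted as separate although they share 3 plates, and their spread may be technical.

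Gc encodes the vitamin D-binding protein, a plasma carrier of vitamin D metabolites made mainly by hepatocytes. It belongs to the albumin gene family with Alb, Afp and Afm. In blood it binds 25-hydroxyvitamin D and also takes up free actin. In the kidney the complex is taken up by the receptors megalin (Lrp2) and cubilin (Cubn), and the active hormone acts on the nuclear receptor Vdr together with a retinoid X receptor. In the mm10 annotation Gc lies on the minus strand at chr5:89417522-89457898.

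Gc chose the classes, so its own level is a description. In the Gc-positive wells it had a median of 2.07 UMIs per 10000, from 1.00 to 10.7, and a median of 18 counted UMIs. The wells between the classes had a median of 0.388 UMIs per 10000. The 20 Gc-positive wells nearest the limit held 1.00 to 1.03 UMIs per 10000, and the 20 nearest wells outside it 0.965 to 0.997. Near the limit lay 107 Gc-positive wells under 1.2 and 116 wells between the classes at 0.8 or more, so the classes are ranges of 1 continuous measure. A Gc-negative well has no Gc UMI at its depth; with a median of 47662 UMIs, 3 UMIs, the number that a count of 0 allows, would be 0.629 per 10000, and in a well of 20000 UMIs they would be 1.5. The 15 wells without cells and the 15 wells of control RNA held 0 Gc UMIs in 2719 and 20306 UMIs, which allows up to 11 and 1.48 per 10000. Of the cell barcodes of kept wells, 261, 237 and 201 occurred on plates 1 and 2, 1 and 3, and 2 and 3.

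The Gc-positive and Gc-negative wells of each plate and cell type were summed into 18 libraries, which form 9 pairs. A library held 72 to 152 Gc-positive or 45 to 153 Gc-negative wells, with 6136483 to 15624605 and 2502104 to 11586716 UMIs. Both classes expressed embryonic stem cell genes. Sox2 had 135 ± 24.7 CPM (counts scaled to a common library size) in Gc-positive and 129 ± 18.3 CPM in Gc-negative libraries (SD, n = 9 each), and Pou5f1 had 54.5 ± 5.67 CPM in Gc-positive and 57.4 ± 7.89 CPM in Gc-negative libraries. Neither passed the test (edgeR quasi-likelihood, adjusted p = 0.940 for Sox2 and 0.926 for Pou5f1). Kmt2a was read in every library, also in those labelled deleted: there it had 56.3, 54.3 and 29.5 CPM in the Gc-positive libraries of plates 1, 2 and 3, and 70.6, 64.3 and 42.8 CPM in the Gc-negative ones. In the control libraries it had 39.6, 54.3 and 61.0 CPM in Gc-positive and 47.9, 47.0 and 41.9 CPM in Gc-negative wells. The deleted and control levels overlapped, and since neither the deleted exons nor the counted transcript end are stated, this level does not check the label. Between the Gc classes Kmt2a changed by -0.27 ± 0.14 on the log2 scale (fit and its standard error, SE), which did not pass (adjusted p = 0.581).

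How often Gc-positive wells occurred was compared between cell types after each well had been thinned to 20000 UMIs, so that depth could not set the share. Among deleted wells 36.9, 39.5 and 38.4% were Gc-positive on plates 1, 2 and 3. Among inhibited wells the share was 26.9, 27.0 and 28.2%, and among control wells 41.6, 38.9 and 50.2%. The inhibited wells had the lowest share on every plate, and their values do not overlap with those of the other types. Exact 95% binomial intervals, which cover counting error only, ran from 22.4 to 31.8% for inhibited and from 37.0 to 46.4% for control wells on plate 1. The share was lower by 16.2 ± 5.23 points in inhibited than in control wells (SD of 3 plate differences, lower on 3 of 3), and an exact two-sided sign permutation gave p = 0.25, the smallest that 3 plates allow. In deleted wells it was 5.33 ± 6.18 points lower, on 2 of 3 plates (exact p = 0.50). With Gc-positive set at 2 UMIs per 10000, in the same thinned wells, the inhibited share was 7.72 ± 2.32 points lower than the control share (3 of 3 plates) and the deleted share 1.55 ± 3.82 points higher (lower on 1 of 3), an alternative chosen after seeing the data. Within a plate each cell type had its own dispense numbers, by which the share ran from 25.9 to 47.9% for deleted, 25.2 to 31.4% for inhibited and 34.3 to 52.7% for control wells, so that type and dispense cannot be told apart there; plate 3 used other numbers for each type than plates 1 and 2 did.

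**Figure D1:**
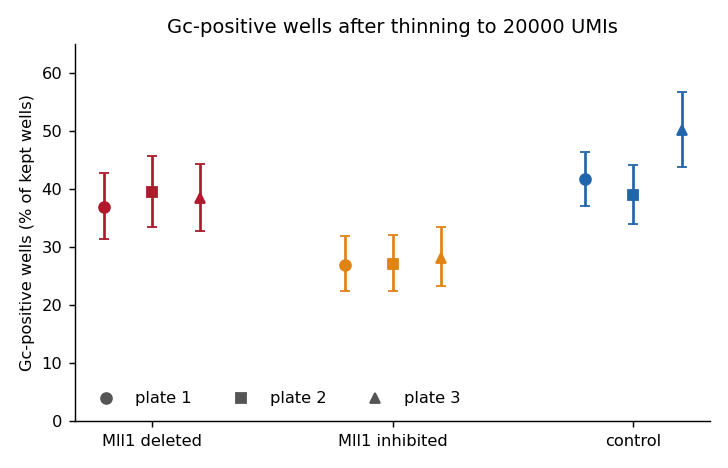
Share of kept wells that were Gc-positive after thinning (percent, y axis) by cell type (x axis) and plate (marker), with exact 95% binomial intervals. The 3 inhibited values lie between 26.9 and 28.2%, below all deleted and control values.

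Gc-positive wells were deeper than Gc-negative wells, and total UMIs enter the rule, so this is given without a test. Median UMIs per well were 53879 to 119762 (median of the 9 groups 84099) in Gc-positive wells and 40446.5 to 56128 (median 46403) in Gc-negative wells, higher in 9 of 9 pairs. The gap was small in inhibited wells of plates 2 and 3, where the Gc-positive median was 53879 and 67333 UMIs against 46403 and 56122 UMIs in Gc-negative wells. At equal depth the Gc-positive wells still held more genes: after thinning the median was 3273 to 3717 detected genes in Gc-positive and 3182 to 3523 in Gc-negative wells. This difference of 121 ± 61.9 genes (SD, n = 9 pairs) was positive in 9 of 9 pairs (exact two-sided sign permutation, p = 0.00391, the smallest that 9 pairs allow). The classes were still those of the unthinned wells, so depth entered their choice, and classes set after thinning were not compared for this measure. The mitochondrial share had a median of 3.42% in Gc-positive and 3.37% in Gc-negative wells, higher in 5 pairs and lower in 4 (exact p = 0.977). Spike-in and reporter sequences took a median of 0.356% in Gc-positive and 0.445% in Gc-negative wells, lower in 8 of 9 pairs; this share of unthinned wells moves with depth and is given without a test. Because depth differs, the results for genes are given from all UMIs and from wells thinned to 20000 UMIs.

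**Figure D2:**
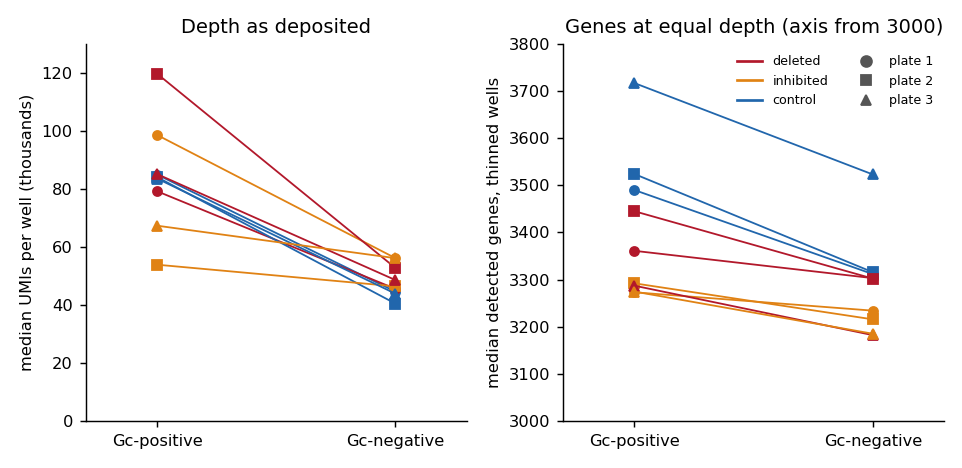
Median UMIs per well (in units of 1000, left) and median detected genes after thinning to 20000 UMIs (right, axis not from 0) in Gc-positive and Gc-negative wells; each line joins the 2 classes of 1 plate and cell type. All 9 lines are higher at the Gc-positive end in both panels.

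Few genes separated the classes. Of 16189 genes tested (Gc left out), 11 passed an adjusted p of 0.05 (0.0679% of those tested), 9 higher (0.0556%) and 2 lower (0.0124%) in Gc-positive cells, and 1521 had an unadjusted p under 0.05 (edgeR quasi-likelihood, pairs as blocks). All 11 had the same sign in 9 of 9 pairs, which 234 genes (1.45%) did. The higher genes were led by Dppa5a, an RNA-binding protein of pluripotent cells, with its processed copies Gm6083 and Gm6798. Also higher were Platr17, named as a pluripotency-associated transcript, 1810037I17Rik, Txn1, Cyb5a, Rbm8a and Nhp2. The lower genes were Acta1, skeletal muscle alpha-actin, and Lgals1, galectin-1, a lectin that binds galactosides. No gene passed without plate 1 (1240 with an unadjusted p under 0.05) or without plate 3 (1180), and 5 passed without plate 2, among them Dppa5a, Gm6083, 1810037I17Rik and Acta1 (edgeR). All 11 kept their sign in each of these fits, which could hardly change it, since each had 1 sign in 9 of 9 pairs. Dppa5a changed by 0.64 without plate 1, 0.65 without plate 2 and 0.62 without plate 3. Without the pairing 1 gene passed, with the cell types summed per plate 3 passed, and DESeq2 on all 3 plates called 295.

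Dppa5a (ENSMUSG00000060461, chr9:78367052-78368177) was the gene with the smallest p. In deleted cells it had 5936, 5769 and 7426 CPM in the Gc-positive libraries of plates 1, 2 and 3, against 4145, 2779 and 5458 CPM in the Gc-negative ones. In inhibited cells it had 7145, 5013 and 4359 CPM in Gc-positive against 3712, 4442 and 2512 CPM in Gc-negative libraries. In control cells it had 6543, 6336 and 6583 CPM in Gc-positive against 4924, 4178 and 3783 CPM in Gc-negative libraries. The Gc-positive library was the higher of each pair, by least in inhibited cells of plate 2, while the classes overlap across types and plates. Over the 9 libraries the mean was 6123 ± 980 CPM in Gc-positive and 3993 ± 940 CPM in Gc-negative cells, a log2 change of 0.64 ± 0.07 (SE; edgeR adjusted p = 0.00175). After thinning the change was 0.52 ± 0.04 (adjusted p = 1.57e-08), and in wells of 20000 to 40000 UMIs, where the classes had about the same depth, it was 0.45 (adjusted p = 0.0260). A Dppa5a UMI was present in all 928 Gc-positive and all 951 Gc-negative wells, so the difference is one of level.

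The 2 copies are annotated as processed pseudogenes, Gm6083 at chr5:29538153-29538509 and Gm6798 at chrX:8654465-8654824. Aligned to the 354 coding bases of Dppa5a, Gm6083 differs at 11 positions (96.9% identity) and Gm6798 at 12 (96.6%). The stretch of 90 bases from coding position 166 to 255 is shown because it holds the most differences and so shows how few bases tell reads of the 3 genes apart. It is read from the GENCODE M21 transcripts (mm10), 5′ to 3′ on the transcribed strand; capitals in Dppa5a mark bases that either copy changes, and capitals in a copy mark bases that differ from Dppa5a.
Dppa5a: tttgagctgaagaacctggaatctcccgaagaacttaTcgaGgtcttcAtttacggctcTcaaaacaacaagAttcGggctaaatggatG
Gm6083: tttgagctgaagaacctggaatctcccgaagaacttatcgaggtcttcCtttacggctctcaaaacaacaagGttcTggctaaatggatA
Gm6798: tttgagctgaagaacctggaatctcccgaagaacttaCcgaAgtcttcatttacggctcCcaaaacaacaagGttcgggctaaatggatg
Each copy differs from Dppa5a at 4 of the 90 bases. The sources used here do not state the treatment of reads matching more than 1 gene, so the values of the 3 genes are uncertain as separate measures. Gm6083 averaged 448 CPM in Gc-positive and 293 CPM in Gc-negative cells (log2 change 0.63 ± 0.09 SE, adjusted p = 0.0101), and Gm6798 averaged 67.8 CPM in Gc-positive and 42.4 CPM in Gc-negative cells (0.69 ± 0.12, adjusted p = 0.0488). All 3 changed by about the same amount, and each Gc-positive library exceeded its Gc-negative partner.

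Txn1 encodes thioredoxin, which reduces disulfide bonds of other proteins. It had 3855, 2135 and 4903 CPM in Gc-positive against 3222, 1815 and 3633 CPM in Gc-negative deleted cells. In inhibited cells it had 4483, 2626 and 4501 CPM in Gc-positive against 3520, 2296 and 3424 CPM in Gc-negative libraries. In control cells it had 3063, 2074 and 3628 CPM in Gc-positive against 2463, 1405 and 1964 CPM in Gc-negative libraries. Every Gc-positive library was above its partner, and plate 2 was the lowest plate in each type and class. The log2 change of Txn1 was 0.40 ± 0.06 (adjusted p = 0.0101), and 0.40 ± 0.03 after thinning (adjusted p = 6.65e-08).

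1810037I17Rik averaged 2607 CPM in Gc-positive and 1929 CPM in Gc-negative cells (log2 change 0.43 ± 0.06, adjusted p = 0.0101). Platr17 averaged 153 CPM in Gc-positive and 91.9 CPM in Gc-negative cells (0.69 ± 0.12, adjusted p = 0.0417); at least 1 Platr17 UMI was counted in 73.4% of Gc-positive and 57.0% of Gc-negative wells, and at equal depth in 52.9% of Gc-positive and 38.5% of Gc-negative wells. The other 3 higher genes changed by less: Cyb5a, an electron carrier of lipid desaturation, by 0.40 ± 0.07, Rbm8a, a core protein of the exon junction complex, by 0.29 ± 0.05, and Nhp2, a protein of the small nucleolar particles that modify ribosomal RNA, by 0.21 ± 0.04. In inhibited cells of plate 2 these last genes were almost level between the classes, with 425, 1177 and 3003 CPM of Cyb5a, Rbm8a and Nhp2 in Gc-positive against 412, 1159 and 2938 CPM in Gc-negative cells.

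Acta1 had 21.7, 16.9 and 7.89 CPM in Gc-positive against 62.6, 18.8 and 54.5 CPM in Gc-negative deleted cells. It had 1.71, 0.68 and 1.79 CPM in Gc-positive against 6.89, 5.97 and 5.50 CPM in Gc-negative inhibited cells, and 5.54, 4.57 and 6.75 CPM in Gc-positive against 24.9, 49.8 and 29.7 CPM in Gc-negative control cells. It was lower in the Gc-positive library of each pair, in control and inhibited cells without overlap within the type, and in deleted cells of plate 2 by little. The log2 change was -2.08 ± 0.30 (adjusted p = 0.0101), and -1.87 ± 0.30 after thinning (adjusted p = 0.00193). Few wells carry this value: 10 wells held 61.5% of the 905 Acta1 UMIs of Gc-positive cells and 10 wells held 61.6% of the 1705 UMIs of Gc-negative cells, and at equal depth 6.03% of Gc-positive and 8.73% of Gc-negative wells had an Acta1 UMI. Actin genes share much of their sequence, so this count is uncertain too.

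Lgals1 averaged 2002 CPM in Gc-positive and 2371 CPM in Gc-negative cells, a log2 change of -0.25 ± 0.04 (adjusted p = 0.0101). The call was lost at equal depth. After thinning the change was -0.13 ± 0.05 (adjusted p = 0.273), and in wells of 20000 to 40000 UMIs it was 0.05. The next genes in the lower direction by p did not pass: the actin-binding protein gene Cfl1 changed by -0.28 ± 0.06 (adjusted p = 0.0651), Hmga1b by -0.40 ± 0.08 (0.0623) and Sfn by -0.43 ± 0.08 (0.0545), each lower in 9 of 9 pairs.

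**Figure D3:**
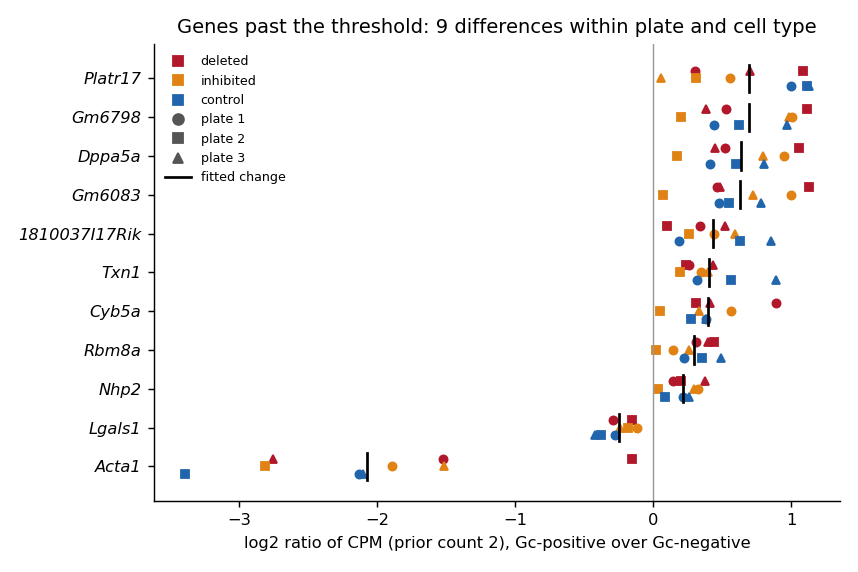
The log2 ratio of CPM, Gc-positive over Gc-negative (x axis, prior count of 2), of the 11 genes past the threshold (y axis) in each of the 9 pairs; colour gives the cell type, marker the plate and the bar the fitted change. All points of the upper 9 genes lie above 0 and all points of Lgals1 and Acta1 below 0.

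**Figure D4:**
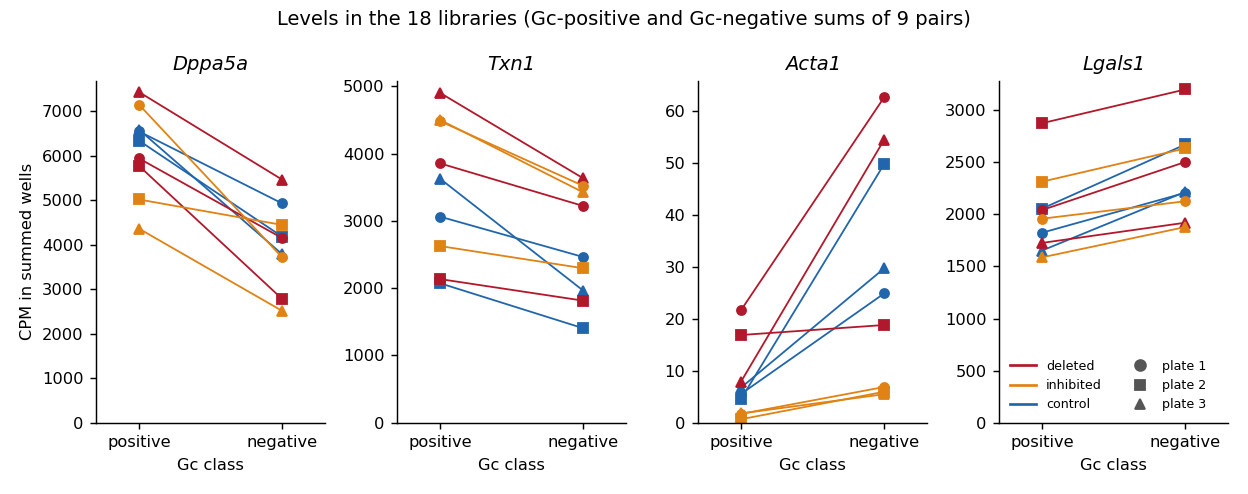
CPM of Dppa5a, Txn1, Acta1 and Lgals1 (y axis) in the 18 libraries, Gc-positive left and Gc-negative right; lines join the classes of 1 plate and cell type. Dppa5a runs from 4359 to 7426 CPM in Gc-positive and from 2512 to 5458 CPM in Gc-negative libraries, so the classes overlap although every pair differs in 1 direction.

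Levels by the amount of Gc are given as a description of thinned wells. Dppa5a averaged 4270 CPM in wells without Gc, 4709 CPM in wells with Gc under 1 per 10000, 5699 CPM at 1 to 2, 5945 CPM at 2 to 4 and 7388 CPM at 4 or more, over the 9 plate and cell type groups. Txn1 averaged 2375, 2892, 2955, 3206 and 3235 CPM over the same levels of Gc. Both were lowest in wells without Gc, with most of the Txn1 step between no Gc and under 1. Depth before thinning had its step at the same place. Its median was 47662 UMIs in wells without Gc, 85368 UMIs in wells with Gc under 1 and 83340.5 UMIs in Gc-positive wells. The part of depth in these levels was not tested. Acta1 averaged 26.1, 19.6, 6.57, 9.07 and 1.5 CPM, and Lgals1 2272, 2376, 1996, 2006 and 2095 CPM. The top level of Gc held 119 wells, as few as 6 in 1 plate and cell type, and its values spread widely (SD of 2224 CPM for Dppa5a).

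**Figure D5:**
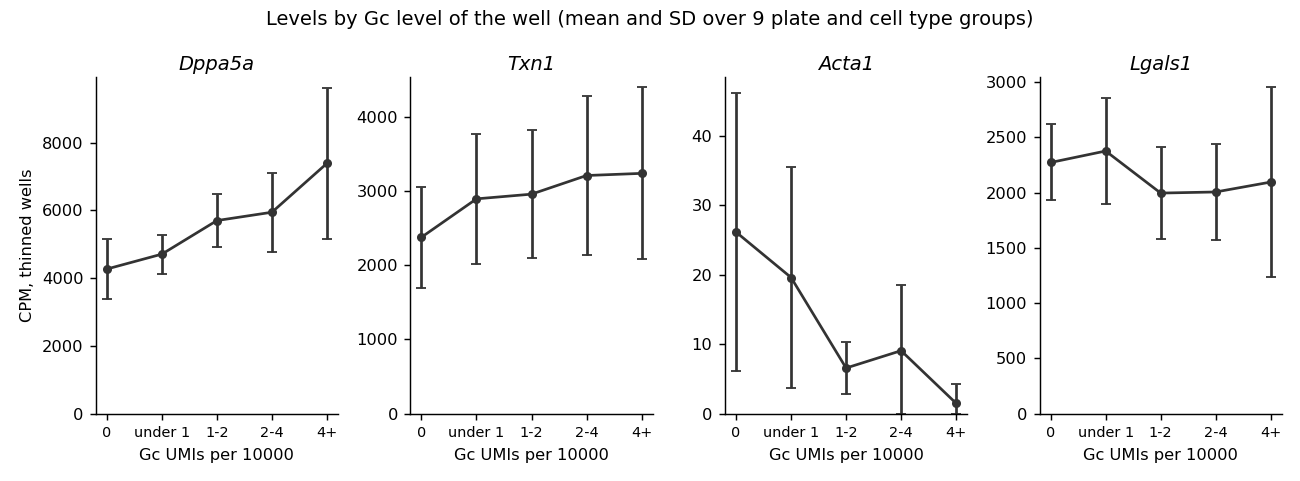
Mean CPM of Dppa5a, Txn1, Acta1 and Lgals1 in thinned wells (y axis) by Gc level of the well (UMIs per 10000, x axis, low to high); points are means over 9 plate and cell type groups and bars 1 SD, ending at 0 where they would pass it. Dppa5a runs from 4270 CPM without Gc to 7388 CPM at 4 or more.

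At equal depth more genes passed. In wells thinned to 20000 UMIs, with the classes as before, 71 of 11854 genes passed (0.599%), 54 higher (0.456%) and 17 lower (0.143%) in Gc-positive cells. They include 10 of the 11 genes above, all but Lgals1, and all 71 had the same sign in the unthinned sums. Only the counts were at equal depth, since the classes came from unthinned wells. With the classes also set after thinning 18 genes passed, 15 of them among the 71. Of the 11 genes 4 passed then, Dppa5a, Gm6083, 1810037I17Rik and Txn1. In wells of 20000 to 40000 UMIs, which are fewer, 4 passed, 3 of them among the 71 and 1, Dppa5a, among the 11. Most changes were small: 32 of the 54 higher genes changed by under 0.3 on the log2 scale. With 1 plate left out 10 to 21 genes passed, and without the pairing 3. The genes named in the next paragraphs that passed only here were chosen after their values were seen, except those named as members of a list. Of these genes Mt1, Mt2, Pla2g1b, mt-Rnr2 and Gm12338 also passed with the classes set after thinning, and the others did not.

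The metallothionein genes Mt1 and Mt2, whose proteins bind zinc and copper, were higher after thinning. Mt1 averaged 5476 CPM in Gc-positive and 4592 CPM in Gc-negative libraries of all UMIs, where its log2 change of 0.25 ± 0.05 missed the threshold (adjusted p = 0.0596); after thinning it was 0.25 ± 0.03 (adjusted p = 2.21e-05). Mt2 changed by 0.22 after thinning (adjusted p = 0.00679). Klhl13, an adaptor of cullin 3 ubiquitin ligases, averaged 23.9 CPM in Gc-positive and 9.57 CPM in Gc-negative libraries and changed by 1.32 ± 0.25 after thinning (adjusted p = 0.0122). The zinc finger gene Zfp978 averaged 18.3 CPM in Gc-positive and 7.89 CPM in Gc-negative libraries, changed by 1.11 after thinning (adjusted p = 0.0485), and did not overlap between the classes in the sums of all UMIs (at least 12.6 CPM in Gc-positive and at most 11.6 CPM in Gc-negative libraries), where it did not pass (adjusted p = 0.0651); after thinning deleted libraries overlapped, with 10.7 to 17.4 CPM in Gc-positive and 7.57 to 14.1 CPM in Gc-negative ones. Mrc1, the macrophage mannose receptor, averaged 28.8 CPM in Gc-positive and 11.2 CPM in Gc-negative libraries (0.99 after thinning, adjusted p = 0.0275), and Pla2g1b, a secreted phospholipase A2, 202 CPM in Gc-positive and 121 CPM in Gc-negative libraries (0.80, adjusted p = 0.00193). Cbx3, a heterochromatin protein, rose by 0.51 (adjusted p = 0.00578).

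Oxidative phosphorylation genes of the nucleus gave 5 of the calls after thinning, of 32 listed members tested, all higher, against 0.456% of all genes: Cox7c (0.35), Cox7b (0.25), Ndufa4 (0.21), Uqcr10 (0.18) and Ndufs6 (0.19), subunits of respiratory complexes. The median of the list was 0.12 after thinning, against -0.01 over all genes, and 30 of 32 members were above 0, against 5793 of 11854 genes. From all UMIs 0 of the 32 passed, with a median of 0.11 against 0.01. With the classes also set after thinning, or in wells of 20000 to 40000 UMIs, these 5 genes did not pass. Of respiratory subunits that are not on the list, Ndufa3 (0.24, adjusted p = 0.0275) and Ndufa7 (0.17, adjusted p = 0.0446) were higher after thinning and Uqcrc1 was lower (-0.23, adjusted p = 0.0420). Several calls are processed copies: 9 of the 71 are annotated as processed pseudogenes, among them Gm12338, 100% identical to Cox7c over 192 bases, and Gm9892, 99.5% identical to Eif2s2 over 992 bases.

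Among the 17 lower genes after thinning were the mitochondrial ribosomal RNAs mt-Rnr2 (-0.26) and mt-Rnr1 (-0.16), which were 2 of 11 tested genes of the mitochondrial genome; the other 9 did not pass, and 0.143% of all genes were lower. From all UMIs mt-Rnr2 changed by -0.10 (adjusted p = 0.452). Also lower were Eef2, the elongation factor that moves the ribosome along its message (-0.35), Flna, the actin crosslinker filamin A (-0.32), Cfl1 (-0.27), the lysosomal protease gene Ctsd (-0.33), and Hbegf, a ligand of the EGF receptor (-0.49). Mcm5, a subunit of the replicative helicase, was the lower member of 21 tested S phase genes (-0.34, adjusted p = 0.0336), and Pkm, pyruvate kinase, that of 20 glycolysis and hypoxia genes (-0.21, adjusted p = 0.0445).

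No listed gene of vitamin D binding, uptake, metabolism or response passed the test. Of 16 listed members besides Gc, 14 were abundant enough to be tested and 0 passed, against 0.0679% of all genes. The median log2 change was 0.08, against 0.01 over all genes. After thinning 9 members were tested and 0 passed, with a median of -0.02 against -0.01 over all genes. Vdr was barely read, with a mean of 0.41 CPM in Gc-positive and 0.51 CPM in Gc-negative libraries. Lrp2 had 96.9 CPM in Gc-positive and 94.4 CPM in Gc-negative libraries (log2 change 0.03 ± 0.13, adjusted p = 0.976), and Cubn 0.44 CPM in Gc-positive and 0.74 CPM in Gc-negative libraries. Snw1, a splicing factor and coactivator of the receptor, had 425 CPM in Gc-positive and 380 CPM in Gc-negative libraries (0.17 ± 0.06, adjusted p = 0.361). Cyp24a1 and Cyp2r1, enzymes that inactivate and activate vitamin D, averaged under 0.2 CPM in both classes and were not tested. Of the other albumin family genes, Alb was at 0 CPM in all Gc-positive libraries and averaged 0.016 CPM in Gc-negative ones, Afp averaged 0.04 CPM in Gc-positive and 0.31 CPM in Gc-negative libraries, and Afm 0.87 CPM in Gc-positive and 1.17 CPM in Gc-negative ones; neither Afp nor Afm passed.

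Listed pluripotency genes other than Dppa5a did not pass from all UMIs. Of 19 naive pluripotency genes 0 passed, with a median of 0.14. Of 16 core and shared genes Dppa5a alone passed, with a median of 0.07. After thinning the medians were 0.03 and 0.01, with 10 of 18 and 8 of 16 tested genes above 0. Over all genes the thinned median was -0.01, with 5793 of 11854 above 0. The largest uncalled values were in Dppa3, with 31.8 CPM in Gc-positive and 9.75 CPM in Gc-negative libraries (log2 change 1.44 ± 0.37, adjusted p = 0.135), and Fbxo15, with 23.0 CPM in Gc-positive and 10.9 CPM in Gc-negative libraries (1.32 ± 0.31, adjusted p = 0.108). In both classes 10 wells held most Dppa3 UMIs, 67.0% in Gc-positive and 68.5% in Gc-negative cells. Nanog changed by 0.42 ± 0.28 (adjusted p = 0.724), and by 0.06 after thinning, where it did not pass either. After thinning Nr0b1, a nuclear receptor of naive cells, was the naive member that passed (0.50, adjusted p = 0.0275), with 138 CPM in Gc-positive and 87.8 CPM in Gc-negative libraries of all UMIs; it was higher in 7 of 9 pairs. Dnmt3l, a cofactor of the de novo DNA methyltransferases, had 115 CPM in Gc-positive and 79.5 CPM in Gc-negative libraries (0.57 ± 0.13, adjusted p = 0.0947) among 10 DNA methylation genes of which 0 passed. Of 13 formative and primed epiblast genes 0 passed.

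Markers of the cell types in which Gc is known, or which such cultures can hold, gave 0 calls from all UMIs, against 0.0679% called over all genes, a share at which lists of this size would seldom hold a call. Of 11 tested visceral endoderm and liver genes 0 passed (median -0.16). Their summed level, 17 of 19 genes being read and most of it Apoe, was 1051 to 1517 CPM in Gc-positive and 947 to 1435 CPM in Gc-negative libraries, and 2 of them were at 0 in all Gc-positive libraries. After thinning Cited1, a transcriptional coregulator, was the list's member that passed (0.58, adjusted p = 0.0292), with changes of 0.47 in deleted, 0.70 in inhibited and 0.57 in control cells. Of 14 primitive endoderm genes 0 passed, with a summed level of 19.4 to 44.4 CPM in Gc-positive and 18.4 to 40.0 CPM in Gc-negative libraries. Of 17 trophectoderm genes 0 passed (median -0.35), and their sum was 523 to 1896 CPM in Gc-positive and 551 to 2050 CPM in Gc-negative libraries, with medians of 695 CPM in Gc-positive and 1339 CPM in Gc-negative ones. Most of that sum was keratin: Krt18 had 556 CPM in Gc-positive and 869 CPM in Gc-negative libraries (log2 change -0.72 ± 0.21, adjusted p = 0.209). Krt8 changed by -0.72 ± 0.21 (edgeR adjusted p = 0.210) and Krt7 by -1.18 ± 0.29 (adjusted p = 0.112). Of 13 alternative fits, Krt7 passed in 2, Krt8 in 2 and Krt18 in 1, each time lower in Gc-positive cells. Of 8 tested genes of the 2-cell-like state, a rare state of these cultures, 0 passed and all 8 were below 0 (median -2.30); their sum was 0.17 to 67.8 CPM in Gc-positive and 0.27 to 122 CPM in Gc-negative libraries. These markers' part in the results was not tested.

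From all UMIs 0 passed of 19 MLL and COMPASS complex genes (median -0.04), 22 S phase genes (-0.02), 22 genes of G2 and mitosis (0.12, 20 above 0), 20 glycolysis and hypoxia genes (-0.11), 22 cholesterol synthesis genes (-0.11, 16 below 0), 17 immediate early genes (-0.13) and 16 ribosomal protein genes (0.02). Over all genes 8404 of 16189 were above 0 and 7785 below. After thinning the G2 and mitosis genes had a median of 0.05, with 15 of 22 above 0. The cholesterol synthesis genes then had a median of -0.09, with 7 of 22 above 0, against 5793 of 11854 over all genes. Of 21 adhesion and calcium-binding genes, 2 fell, Acta1 and Lgals1, which are also the 2 lower genes of all 16189 (0.0124%), and 18 were below 0, against 7785 of 16189 genes. Of 16 antioxidant genes of the NRF2 list 1 rose, Txn1. Amino acid and unfolded protein stress genes gave Slc3a2, the heavy chain of amino acid transporters, after thinning (0.20, adjusted p = 0.0300).

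No gene passed within a single cell type from all UMIs (edgeR). An unadjusted p under 0.05 was found for 976 deleted, 958 inhibited and 1037 control genes. Each change rests on 3 pairs, but the spread behind its p was estimated over all 18 libraries, so the 3 tests share it. DESeq2 called 57, 51 and 113. The values of Dppa5a were alike, 0.67 in deleted, 0.64 in inhibited and 0.60 in control cells. After thinning 6 genes passed in deleted, 5 in inhibited and 8 in control cells, and Dppa5a, Txn1 and 1810037I17Rik passed in each: Dppa5a changed by 0.56, 0.52 and 0.47, Txn1 by 0.36, 0.37 and 0.46 and 1810037I17Rik by 0.44, 0.35 and 0.50. Also called were Gm6083, Rbm8a and mt-Rnr2 in deleted cells, Gm6083 and Mt1 in inhibited cells, and Krt18, Pla2g1b, Mt1, mt-Rnr2 and Lgals1 in control cells. Krt18 changed by -0.46 in deleted, 0.23 in inhibited and -1.09 in control cells, and the test of the difference between types gave an adjusted p of 0.397. No gene's change differed between the cell types from all UMIs (edgeR; 679 had an unadjusted p under 0.05, and DESeq2 called 9).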

How the data were processed

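The deposited tables hold raw UMI counts per gene and well of single mouse embryonic stem cells on 3 plates, not normalised by the authors, from the file values. The submitters' processing notes name mm10 as the build and list Subread 1.4.6-p1, featureCounts and STAR 2.5.2b, without their order. The sources used here do not state strand use, the transcript end counted or the treatment of multi-mapping reads. Well types came from the deposited plate reports, whose UMI and gene totals equalled the tables' in all wells. Spike-in and reporter sequences (0.752, 0.690 and 0.646% of UMIs on plates 1, 2 and 3) were left out. GENCODE M21 names 28641 of 29267 identifiers. Doublets were not called; leaving out the deepest 5% of wells was an alternative.

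Wells were filtered and classed by the rule in the report. Counts were summed per plate, cell type and class, wells not being replicates, and tested with edgeR 4.0.16 (R 4.3.3): TMM, filterByExpr, a block for each plate and cell type, the quasi-likelihood F test and Benjamini-Hochberg adjustment over all genes tested, threshold 0.05. The pairing comes from the labels, since both classes share a plate and a cell type. Deviations of the 9 pairs correlated at 0.0443 to 0.0745. Those of libraries of the same plate but another cell type correlated at 0.0181 to 0.0715, so the ranges overlap. Thinning drew 20000 UMIs per well without replacement (seed 7). CPM are scaled by TMM library sizes. Intervals are 95% Clopper-Pearson.

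Genes were named by rule: Kmt2a; vitamin D and albumin family genes; the 10 largest called rises and falls of at least 10 CPM with 1 sign in 8 of 9 pairs, filled to 5 by p; and up to 4 genes per list by p, of 34 lists. The classes, lists and rule were chosen with earlier results of these data known. DESeq2 1.42.0 was an alternative.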

Additional observations from a re-analysis of the deposited data

Results flagged for a closer look

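After thinning, the change between the Gc classes differed between cell types for Malat1 and Myom2 by the test of that difference (edgeR quasi-likelihood, adjusted p = 0.0450 for each); from all UMIs neither gene passed it. Malat1, an abundant nuclear noncoding RNA, changed by -0.06 ± 0.06 in deleted, 0.26 ± 0.06 in inhibited and -0.32 ± 0.06 in control cells (log2, SE). In inhibited cells it had 18567 to 24540 CPM in Gc-positive and 13881 to 20936 CPM in Gc-negative libraries, and in control cells 15104 to 21154 CPM in Gc-positive and 17378 to 25658 CPM in Gc-negative libraries, all thinned, so the libraries of the classes overlap. In wells of 20000 to 40000 UMIs Malat1 again passed the test of the difference (adjusted p = 5.14e-05). Myom2, a sarcomere protein gene, changed by -2.29 ± 0.48 in deleted, 1.86 ± 0.46 in inhibited and 0.93 ± 0.49 in control cells, with 3.08 to 12.8 CPM in Gc-positive and 4.87 to 88.6 CPM in Gc-negative deleted libraries. Without plate 1 neither passed the test of the difference after thinning, without plate 2 Malat1 did (adjusted p = 0.0349), and without plate 3 both did (0.0326 for Malat1, 0.0246 for Myom2; edgeR). After thinning with all plates neither passed within a single cell type; Malat1 passed within control cells without plate 2 (adjusted p = 0.00719) and within inhibited cells in wells of 20000 to 40000 UMIs (1.68e-05). Both were chosen after their values were seen. Among 16 sets of 9 pair differences, the 11 called genes and 5 measures of the wells, none had 1 pair standing apart by Dixon's 95% limit. Chance passes this limit in about 1 of 20 sets. That rate does not hold for the 11 genes, which were called by a test that favours agreement of these same pairs.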

How the results depend on the processing

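The count of 11 genes became 71 with thinned wells, 18 with classes and sums both thinned, 4 in wells of 20000 to 40000 UMIs, 295 with DESeq2, 198 without the filter on low counts, 7 without the deepest 5% of wells, 22 with Gc-positive at 2 per 10000, 3 with sums over the cell types and 0 to 5 with 1 plate left out. DESeq2 size factors in edgeR gave 12, among them all 11. Without the replicate block 1 gene passed, Acta1, and after thinning 3 instead of 71; 10 to 21 passed after thinning with 1 plate left out, alternatives added after seeing the data. In the same order as named here, thinned wells, classes and sums thinned, DESeq2 and no filter gave 6, 10, 57 and 46 genes within deleted, 5, 5, 51 and 40 within inhibited and 8, 3, 113 and 90 within control cells, all against 0. Wells of 20000 to 40000 UMIs gave 1 gene within deleted and 1 within inhibited cells, the fit without the deepest wells 3 within control cells, and leaving out a plate 0 to 1 within inhibited cells. For the difference between cell types, thinning gave 2, the narrow range 1, DESeq2 9, no filter 30 and leaving out a plate 0 to 1, against 0; the replicate block changed none of these. The 11 genes kept their sign in all 13 alternatives, 143 values, except Lgals1, which changed by 0.045 in wells of 20000 to 40000 UMIs (edgeR adjusted p = 0.992). Fits that leave out a plate could hardly change a sign, since all pairs of each of these genes had the same sign. Of the 143 values 73 did not pass. The cause of these changes was not tested. Of 116 named genes that did not pass, 25 changed sign, without a call, in 1 or more alternatives. The gap in median UMIs, 35805 in all kept wells, was 195 in wells of 20000 to 40000 UMIs and 34014 to 39123 with 1 plate left out; the gap in detected genes, 825, was 114 there and 804 to 851. With Gc-positive at 2 per 10000 the share of positive wells differed from control by 1.55 points in deleted and -7.72 points in inhibited wells, against -5.33 and -16.2, all in thinned wells (an alternative added after seeing the data). In unthinned wells the differences were 1.63 and -5.93 at 2 per 10000, against -3.84 and -17.2 at 1 per 10000. In thinned wells with 1 plate left out the differences at 1 per 10000 were -8.26 to -2.10 and -18.4 to -13.3 points.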
